A study of Mus musculus with 16 samples.

Results

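Muscle fibers isolated from the extensor digitorum longus (EDL), a fast hindlimb muscle, were compared between mice whose sciatic nerve had been cut (DEN) and mice after sham surgery, across all genes. The fiber libraries were taken by their labelled preparation and surgery. They are 8 of the 16 libraries of the series, 4 from DEN and 4 from sham fibers. The other 8 libraries came from whole tibialis anterior (TA) muscle after the same surgeries and were used to ask where the DEN effect differed between preparations and in 1 alternative fit.

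All mice were young male C57BL/6J mice by the study's description, and EDL was collected 21 days after surgery. In DEN mice the sciatic nerve of 1 leg was transected, and in sham mice the nerve was located but left intact. Fibers were freed with collagenase and trituration, and single fibers that had not contracted were used. Satellite cells, the muscle stem cells, sit under the basal lamina of a fiber and stay attached to it in such preparations. Each library was treated as 1 animal, as the study describes its samples, and the p-values measure the spread between these libraries.

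A muscle fiber is a multinucleated cell whose motor nerve sets much of its gene expression. In an innervated fiber, acetylcholine receptors are made under the nerve ending and nerve-evoked activity keeps their genes silent elsewhere along the fiber, a restraint that is lost when the nerve is cut. Firing pattern also sets which myosin, calcium pump and ion channel isoforms a fiber makes, so fast and slow fibers carry different members of the same families. Denervated muscle is known for atrophy, for spread of receptors over the whole fiber and for altered excitability.

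Depth was 48477701 to 57620315 counts per library, and a count was found for 22252 to 24427 genes. The libraries separated by surgery on the first principal component, which held 77.7% of the variance. Spearman correlations were 0.964 to 0.971 within a surgery and 0.946 to 0.953 between surgeries. Values are given as normalised CPM, counts scaled to a common library size with TMM factors, a scaling that places the middle of all genes at no net change. The 10 most abundant genes took 14.7% to 16.0% of counts in DEN fibers and 22.8% to 26.8% in sham fibers. The median log2 fold change of all genes was 0.0076 with TMM scaling and 0.49 when libraries were scaled by total counts only, and this second scaling is called total-count scaling below.

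Of 16724 genes tested, 9047 (54.1%) passed at an adjusted p of 0.05 (edgeR quasi-likelihood F-test, Benjamini-Hochberg adjustment over all tested genes). Of all tested genes, 27.1% were higher and 27% lower in DEN fibers, and these shares are the background for every list count below. Under total-count scaling the shares were 59.5% and 8.93%. All 4532 genes called higher with TMM scaling were also called higher under total-count scaling, whereas 505 of the 4515 called lower were then called higher. With an absolute log2 fold change of 0.58 or more required as well, 30.6% passed, 16.1% higher and 14.5% lower. The groups did not overlap in normalised CPM for 50.5% of genes. Genes named below for their fold or difference were picked among those without overlap. Their separate groups are therefore not a result. The middle 90% of log2 fold changes lay between -1.21 and 1.55. Of the genes that passed at an adjusted p of 0.05, 72 were at 5 or above and 16 at -5 or below.

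Sham fiber library 3 stood apart from the other sham libraries on the next component (6.55% of the variance). It had the highest summed level of fibro-adipogenic progenitor markers (3060, against 1089 to 1269 in the other sham libraries) and of tenocyte markers (1983, against 186 to 509). Without it, 9299 genes passed, 4777 higher and 4522 lower. Sham fiber library 1 had the highest share of mitochondrial counts (18.0%, against 11.9% to 14.1%) and of blood markers (1504, against 266 to 367 summed normalised CPM), and without it 8372 genes passed. Myofiber markers had the highest sum of the marker lists in every library, at 84080 to 109200 normalised CPM in DEN fibers and 199500 to 249100 in sham fibers. Of these 12 markers 1 was higher and 9 lower in DEN fibers. Most of the 12 are genes of fast fibers, among them Myh4, Atp2a1, Tnnc2 and Pvalb, whose falls are given below. Whether the lower sum reflects these isoforms or the amount of fiber RNA was not tested.

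Promoter sequence of the receptor genes is shown first, because all 5 of these genes moved together. The receptor of muscle is a pentamer of alpha, beta, delta and either gamma (fetal) or epsilon (adult) subunits, encoded by Chrna1, Chrnb1, Chrnd, Chrng and Chrne. E-boxes, with the letters CANNTG, are the sequences that myogenic factors such as myogenin bind. RefSeq held a window for 4 of the 5 genes (assembly GRCm38.p6), and the 250 bases before the annotated start are printed 5′ to 3′ on the strand of the gene, with each CANNTG in capitals. Starts follow RefSeq, whereas gene positions given below follow GENCODE on the same build. The RefSeq starts of Chrnb1, Chrng and Chrne lie inside their GENCODE genes. For Chrng the whole window lies inside that gene (87204657 to 87212694). The windows are chr2:73580339-73580588 (Chrna1, minus strand), chr11:69795938-69796187 (Chrnb1, minus strand), chr1:87205561-87205810 (Chrng, plus strand) and chr11:70619195-70619444 (Chrne, minus strand).
Chrna1: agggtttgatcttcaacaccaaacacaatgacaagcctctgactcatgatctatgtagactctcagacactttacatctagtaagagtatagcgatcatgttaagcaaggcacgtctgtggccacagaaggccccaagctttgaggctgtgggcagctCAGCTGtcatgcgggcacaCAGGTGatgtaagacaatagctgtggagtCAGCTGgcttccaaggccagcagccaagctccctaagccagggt
Chrnb1: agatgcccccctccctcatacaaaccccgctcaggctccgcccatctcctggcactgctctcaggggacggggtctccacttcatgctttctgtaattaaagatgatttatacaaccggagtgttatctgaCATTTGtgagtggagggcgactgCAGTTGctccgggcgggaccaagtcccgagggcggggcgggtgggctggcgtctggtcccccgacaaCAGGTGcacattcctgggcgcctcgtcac
Chrng: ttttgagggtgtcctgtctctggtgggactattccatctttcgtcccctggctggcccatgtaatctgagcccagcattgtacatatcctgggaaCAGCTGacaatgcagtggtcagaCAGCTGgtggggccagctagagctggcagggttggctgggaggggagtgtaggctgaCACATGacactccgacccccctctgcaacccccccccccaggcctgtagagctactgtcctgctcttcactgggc
Chrne: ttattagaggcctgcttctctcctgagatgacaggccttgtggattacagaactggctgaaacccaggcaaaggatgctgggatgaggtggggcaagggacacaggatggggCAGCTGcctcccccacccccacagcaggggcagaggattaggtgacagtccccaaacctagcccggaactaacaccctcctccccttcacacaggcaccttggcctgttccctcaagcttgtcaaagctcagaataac

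The Chrna1, Chrnb1 and Chrng windows each held 3 E-boxes and the Chrne window held 1. CANNTG reads the same on both strands, and of 32817 promoter windows of this length 66.2% held at least 1 and 12.2% at least 3. The form CAGCTG, a subset of CANNTG, was present 2 times in the Chrna1 and Chrng windows, a number reached by 1.26% of all windows. It was present 1 time in the Chrne window and was not found in the Chrnb1 window. These matches describe the letters of the windows and are not evidence of binding.

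All 5 receptor subunit genes rose in DEN fibers, Chrng by the widest margin and Chrne by the narrowest. Chrng had 47.1, 46.2, 61.3 and 31.4 normalised CPM in DEN fibers, against 0.265, 0.162, 0.137 and 0.407 in sham fibers (log2 fold change 7.58, SE 0.31). Chrnd had 133, 131, 150.5 and 113 in DEN fibers and 7.32, 7.01, 6.59 and 7.204 in sham fibers (4.23, SE 0.098). Both genes lie on chromosome 1 (GRCm38, Chrnd at 87190607 to 87200070 and Chrng at 87204657 to 87212694), and their groups were far apart. Chrna1 had 264, 254, 261 and 209 in DEN fibers and 19.1, 21.02, 19.6 and 19.9 in sham fibers (3.63, SE 0.091). Chrnb1 had 120, 128, 119.9 and 119 in DEN fibers and 24.8, 26.5, 28.96 and 33.2 in sham fibers (2.101, SE 0.091). Every DEN library lay above every sham library for these 4 genes, with DEN fiber library 4 the lowest of the DEN libraries in each. Chrne had 32.6, 37.7, 37.2 and 28.4 in DEN fibers and 20.96, 23.5, 21.8 and 31.3 in sham fibers (0.48, SE 0.14, adjusted p = 0.0146), and its groups overlapped because DEN library 4 lay below sham library 4.

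**Figure D1:**
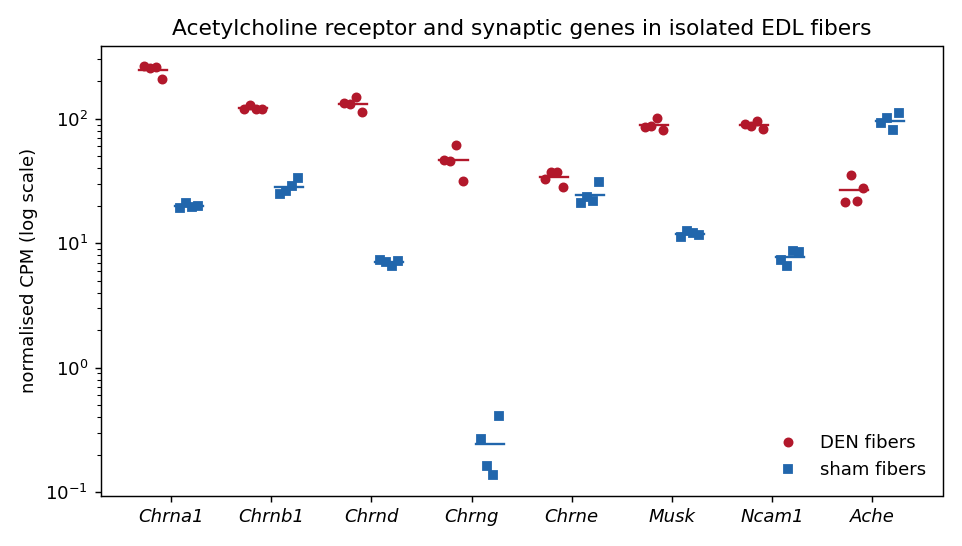
Normalised CPM (log scale) of 5 acetylcholine receptor subunit genes and 3 synaptic genes in each isolated fiber library, with DEN fibers as circles on the left and sham fibers as squares on the right of each pair and bars at the means of 4 libraries. The groups overlap for Chrne alone, and Ache is the gene shown that is lower in DEN fibers.

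Measured per length, Chrng made up 36.98, 33.2, 40.05 and 30.96% of summed Chrng and Chrne RPKM in the 4 DEN libraries, against 0.511, 0.278, 0.254 and 0.525% in the sham libraries. The mean share was 35.3% ± 4.02 in DEN fibers and 0.392% ± 0.146 in sham fibers (SD, n = 4 each). Each of 15 such shares, for this pair and the families below, gave a two-sided exact permutation p of 0.0286, the smallest that 4 against 4 libraries can give, and 0.0286 after Benjamini-Hochberg adjustment over the 15. By RPKM, Chrne supplied the larger part of this pair in each DEN library. Normalised CPM, which is not divided by gene length, was higher for Chrng than for Chrne in each DEN library, so this order rests on the gene lengths behind RPKM.

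Genes that build the postsynaptic apparatus moved both ways. Of 19 tested, 8 rose and 6 fell (14 higher and 2 lower under total-count scaling), with a median log2 fold change of 0.198. Ncam1, an adhesion molecule that spreads over denervated fibers, had 90.7, 87.98, 95.7 and 82.2 normalised CPM in DEN fibers and 7.32, 6.599, 8.74 and 8.47 in sham fibers. Musk, the kinase that receives the agrin signal, had 86.2, 88.2, 101 and 81.9 in DEN fibers and 11.2, 12.6, 12.01 and 11.6 in sham fibers. The log2 fold changes of Ncam1 and Musk were 3.51 and 2.91, and separate groups were a condition for naming Ncam1. Ache, whose product hydrolyses acetylcholine, went the other way, with 21.4, 35.5, 21.8 and 27.9 in DEN fibers and 91.9, 101, 81.3 and 111 in sham fibers (-1.85). Erbb4, a neuregulin receptor, fell by 1.66 on the log2 scale.

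Among 19 myogenic and denervation-related transcription regulators, 6 rose and 6 fell (9 and 3 under total-count scaling, median -0.12). Myog, encoding myogenin, had 70.3, 55.9, 90.1 and 50.2 normalised CPM in DEN fibers and 4.14, 3.69, 4.09 and 4.09 in sham fibers. The DEN libraries varied for Myog while the sham libraries were close together. Dach2, a corepressor known to restrain Myog in innervated muscle, was low in DEN fibers at 0.09897, 0.182, 0.142 and 0.137, against 0.212, 1.62, 1.37 and 1.14 in sham fibers (-2.94, SE 0.53). Sham library 1 was the lowest of its group for Dach2 and lay just above the highest DEN library. Hdac4, a repressor of Dach2, had 154, 176, 169 and 180.4 in DEN fibers and 95.9, 88.1, 82.6 and 81.4 in sham fibers (0.97). Runx1 rose by 2.25. Eya1, a coactivator of the fast fiber program, fell by 1.15.

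Regulators of fiber type were more often lower, at 12 of 23 against 3 higher (median -0.48), whereas under total-count scaling 6 were lower and 7 higher. The large Maf factors, activators of the Myh4 program and grouped after their values were seen, all fell, 3 of 3 under both scalings. Mafa had 11.6, 13.5, 9.77 and 11.1 normalised CPM in DEN fibers and 112, 104.8, 82.9 and 87.1 in sham fibers (-3.07, SE 0.13). Maf had 36.8, 47.6, 33.7 and 41.2 in DEN fibers and 207, 212, 163 and 201 in sham fibers (-2.297). Tbx15, a factor of glycolytic fibers, fell by 0.87. Esrrg, a nuclear receptor of oxidative metabolism, had 51.97, 65.6, 50.1 and 67.7 in DEN fibers and 19.6, 20.1, 16.1 and 14.5 in sham fibers (1.74), and Prox1, a factor of slow fibers, rose by 1.31. The fast-program factors were thus lowest in DEN libraries and these 2 oxidative or slow ones lowest in sham libraries, without overlap. For all of them except Tbx15, separate groups were a condition of being named.

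The myosin heavy chain genes, most of which lie in a cluster on chromosome 11, shifted between isoforms. Myh4 (type IIb, chromosome 11, 67238029 to 67260446) had 10363, 8968, 6596 and 9123 normalised CPM in DEN fibers, against 67178, 53735, 51522 and 61848 in sham fibers (-2.74, SE 0.19). Myh2 (type IIa, chromosome 11, 67171027 to 67197517) had 7991, 8949, 7004 and 10341 in DEN fibers, against 447, 1986, 1063 and 871 in sham fibers (2.97, SE 0.395). Myh1 (type IIx), between them on the chromosome, had 8435, 10548, 7215 and 9109 in DEN fibers and 4496, 7766, 6863 and 6149.7 in sham fibers. The Myh1 groups overlapped and its log2 fold change of 0.48 passed narrowly (adjusted p = 0.0495). That call was lost without DEN library 1, 2 or 4 or sham library 1, 3 or 4 (0.35 to 0.52, adjusted p = 0.0513 to 0.138) and with DESeq2 size factors (adjusted p = 0.0536).

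Measured per length, Myh4 held 40.7, 33.4, 33.4 and 34.03% of the summed RPKM of 6 heavy chains in DEN fibers, against 93.1, 85.2, 87.04 and 90% in sham fibers. Myh1 held 31.3, 37.2, 34.6 and 32.2% in DEN fibers and 5.903, 11.7, 10.98 and 8.47% in sham fibers. Myh2 held 26.4, 28.1, 29.9 and 32.5% in DEN fibers and 0.523, 2.65, 1.51 and 1.07% in sham fibers. DEN fibers thus carried nearly even parts of the 3 adult fast chains, and sham fibers carried mostly Myh4. The remaining chains stayed minor, with mean shares of 0.921% ± 0.344 for embryonic Myh3, 0.583% ± 0.0333 for perinatal Myh8 and 0.0722% ± 0.0273 for slow Myh7 in DEN fibers, against 0.0412% ± 0.0145, 0.418% ± 0.0076 and 0.00551% ± 0.00406 in sham fibers (SD, n = 4 each). All 6 shares were separate between the groups.

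**Figure D2:**
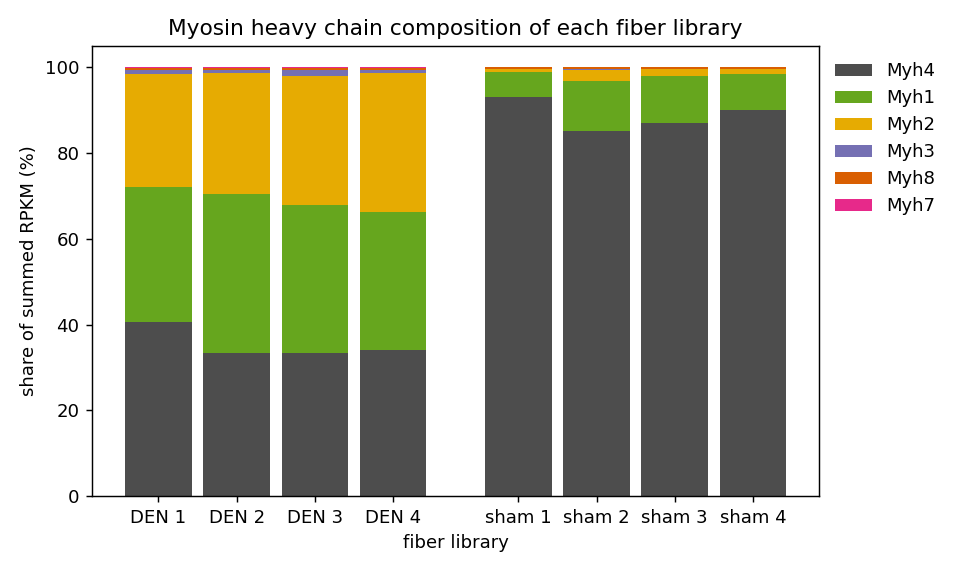
Share of summed RPKM (percent) of 6 myosin heavy chain genes in each isolated fiber library, DEN libraries on the left and sham libraries on the right, 1 stacked bar per library. Myh4 takes 33.4% to 40.7% in DEN libraries and 85.2% to 93.1% in sham libraries.

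Developmental heavy chains did not move as a group. Myh3 had 234, 204, 279 and 166 normalised CPM in DEN fibers and 17.5, 36.4, 28.5 and 24.6 in sham fibers (3.04). Perinatal Myh8 had 303, 289, 238 and 293 in DEN fibers and 594, 528, 476 and 557 in sham fibers (-0.94), so its level fell although its share of the 6 chains rose. Slow Myh7 had 22.5, 24.8, 14.3 and 43.1 in DEN fibers and 1.19, 9.09, 6.47 and 3.15 in sham fibers (2.38, SE 0.52), with wide spread in both groups. Myh13, known from extraocular muscle, had 94.9, 99.3, 25.4 and 91.2 in DEN fibers and 42.98, 93.4, 91.6 and 72.2 in sham fibers and did not pass (adjusted p = 0.927). DEN library 3 was low for Myh13. Without it or without sham library 2, 3 or 4 the sign stayed positive, and it turned negative without any of the others.

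Among the other thick filament genes, kinases of the regulatory light chain fell steeply. Mylk2, the skeletal muscle kinase, had 112, 158, 97.9 and 148 normalised CPM in DEN fibers and 1318, 1357, 1243 and 1543 in sham fibers (-3.402, SE 0.17). Mylk4, a related kinase, had 79.5, 113, 71.3 and 124 in DEN fibers and 682, 927, 730.1 and 1118 in sham fibers (-3.15). Mybpc2, the fast myosin-binding protein, fell by 3.66, with DEN library 3 at 215 against 395 to 428 in the other DEN libraries. Of 12 light chain and kinase genes 4 rose and 3 fell (7 and 3 under total-count scaling, median 0.53).

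Of 16 thin filament regulators 4 rose and 8 fell (7 and 4 under total-count scaling, median -0.43). The slow troponins Tnnt1 and Tnni1 rose by 3.59 and 3.21. Fast Tnnc2 had 4240.5, 4084, 3281 and 4374 normalised CPM in DEN fibers and 8815, 7575, 8126 and 9250.3 in sham fibers (-1.08). Even so, the slow forms stayed rare beside their fast partners. Tnnt1 was 0.572% ± 0.0742 of Tnnt1 plus Tnnt3 RPKM in DEN fibers and 0.0283% ± 0.0178 in sham fibers. Tnni1 was 0.3701% ± 0.065 of Tnni1 plus Tnni2 in DEN fibers and 0.0219% ± 0.00816 in sham fibers (SD, n = 4 each).

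Z-disc and stretch-response genes split by isoform. Of 26 tested, 9 rose and 10 fell (16 and 5 under total-count scaling, median -0.11). Ankrd2, an ankyrin repeat protein induced by stretch, had 506, 486, 461 and 665 normalised CPM in DEN fibers and 26.1, 88.3, 37.3 and 31.02 in sham fibers (3.54). Its relative Ankrd1 had 1444, 1193, 1131 and 1128 in DEN fibers and 278, 315, 114 and 100.4 in sham fibers (2.602). Sham library 2 was the highest sham library for both. Csrp3, encoding muscle LIM protein, rose by 5.04 with sham libraries from 9.58 to 55.1 (5.84 without sham library 2, the highest), and Fhl1, a further LIM protein, had 3946, 4650.5, 3918 and 4924 in DEN fibers and 696, 929, 822 and 831 in sham fibers (2.41). The fast calsarcins Myoz1 and Myoz3 fell by 1.81 and 1.71. Actn2 had 1979, 2121, 1786 and 2513 in DEN fibers and 662, 793, 803 and 776 in sham fibers (1.47). Actn3, its partner of fast fibers, had overlapping groups and did not pass (-0.19, adjusted p = 0.26), and was called higher under total-count scaling (0.297, adjusted p = 0.0191).

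The intermediate filament list leaned upward under both scalings, with 9 of 13 higher and 2 lower (10 and 1 under total-count scaling, median 0.73). Desmin (Des), the main filament of mature fibers, had 4328, 4523, 3923 and 4790.2 normalised CPM in DEN fibers and 2940, 2475, 2763 and 3094 in sham fibers (0.64). The epithelial keratins were nearly silent in sham fibers. Krt18 had 240.1, 179.6, 191 and 221 in DEN fibers and 0.265, 0.0461, 0.215 and 0.322 in sham fibers. Krt8 had 73.5, 63.7, 61.8 and 78.2 in DEN fibers and 0.0531, 0.0231, 0 and 0.0643 in sham fibers, and its reads can be shared with the copy Krt8-ps. Synemin (Synm) was the exception, with 153, 155, 103 and 171 in DEN fibers and 628, 697, 463 and 546 in sham fibers (-2.01).

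Genes that pump, inhibit and buffer calcium in the sarcoplasmic reticulum differed by isoform. Atp2a1, the fast calcium pump, had 16792, 18051, 14590 and 18654 normalised CPM in DEN fibers and 45270, 40755, 42093 and 49971 in sham fibers (-1.39). Atp2a2, the slow pump, had 215, 230.1, 216 and 237 in DEN fibers and 56.8, 69.1, 80.4 and 49.8 in sham fibers (1.81). The slow pump nevertheless stayed a small part of the pair, at 0.752% ± 0.0572 of summed RPKM in DEN fibers and 0.0837% ± 0.0236 in sham fibers (SD, n = 4 each). Of 19 genes of this list 5 rose and 9 fell (8 and 7 under total-count scaling, median -0.36).

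The small peptide inhibitors of these pumps went in opposite directions. Sarcolipin (Sln) had 113, 125, 116 and 95.98 normalised CPM in DEN fibers and 0.849, 1.62, 1.82 and 1.22 in sham fibers (6.33, SE 0.19). Phospholamban (Pln), the cardiac inhibitor, had 3.65, 2.77, 3.36 and 4.64 in DEN fibers and 0.982, 1.38, 1.35 and 1.65 in sham fibers (1.42). Myoregulin (Mrln), the inhibitor of adult fast fibers, had 18.9, 18.2, 15.1 and 13.6 in DEN fibers and 47.2, 40.1, 40.9 and 43.8 in sham fibers (-1.38). No library overlapped the other group for any of the 3. Strit1, encoding a peptide that displaces these inhibitors, had 1 count in all DEN libraries together and 0 in sham fibers and was not tested. Among the buffers, fast calsequestrin (Casq1) had 785, 889.6, 616 and 753 in DEN fibers and 2814, 2366, 2409.6 and 3078 in sham fibers (-1.81). Parvalbumin (Pvalb) fell by 1.53 and cardiac calsequestrin (Casq2) rose by 1.85. The 3 calmodulin genes, grouped after their values were seen, all fell with TMM scaling, and 1 of them fell under total-count scaling.

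At the triad, where the surface membrane signals to calcium release, 16 of 26 genes fell and 5 rose (median -0.31), against 6 and 12 under total-count scaling. The junctophilins, which tie both membranes together and were grouped after their values were seen, fell under both scalings. Jph2 had 257, 313, 208 and 280.4 normalised CPM in DEN fibers and 865, 953, 682 and 841 in sham fibers (-1.66). Jph1 had 184, 202, 171 and 202 in DEN fibers and 543, 544, 476 and 526 in sham fibers (-1.46). Ryr3, a minor release channel of fetal muscle, had 2.52, 1.61, 1.97 and 4.72 in DEN fibers and 0.531, 0.438, 0.665 and 0.579 in sham fibers (2.27), with DEN library 4 the highest. Bin1, which shapes the transverse tubules, rose by 0.67.

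Of 19 genes of sodium and chloride channels, which set excitability, and of the sodium pump 5 rose and 7 fell (10 and 3 under total-count scaling, median -0.17). Scn4a, the sodium channel of adult skeletal muscle, had 320.1, 385, 319 and 360 normalised CPM in DEN fibers and 732, 835, 676 and 754 in sham fibers (-1.11, SE 0.095). Scn4b, an auxiliary subunit, had 139, 179.7, 132 and 189 in DEN fibers and 595, 678, 484 and 582 in sham fibers (-1.87). Clcn1, the chloride channel whose loss causes myotonia, had 111, 148, 112 and 130.1 in DEN fibers and 303, 325, 248 and 296 in sham fibers (-1.23). The DEN libraries were below all sham libraries for these 3 genes. Scn3b, another auxiliary subunit, was higher at 2.61, 3.18, 3.87 and 3.59 in DEN fibers, against 1.75, 1.8, 1.45 and 1.37 in sham fibers (1.06), again with separate groups. Separate groups were a condition for naming Scn4b and Scn3b.

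Potassium channels fell more often than they rose, with 15 of 35 lower and 6 higher (10 and 12 under total-count scaling, median -0.24). Kcnn3, the apamin-sensitive channel that appears in denervated muscle, had 143, 138, 157 and 118 normalised CPM in DEN fibers and 8.54, 5.31, 4.91 and 7.25 in sham fibers (4.42). Kcnk5, a background channel, had 23.2, 25.9, 28.5 and 13.8 in DEN fibers and 1.72, 2.72, 2.56 and 1.99 in sham fibers (3.34). DEN library 4 was the lowest DEN library for both. The voltage-gated alpha subunits of the Kcna, Kcnb, Kcnc and Kcng families, grouped after their values were seen, included no gene that rose, and 8 of 10 fell (6 under total-count scaling). Kcng4, a silent subunit, had 5.84, 10.03, 6.41 and 6.18 in DEN fibers and 59.5, 43.1, 47.6 and 54.6 in sham fibers (-2.85). Kcnj12, an inward rectifier, had 10.7, 15.9, 9.63 and 13.5 in DEN fibers and 48.6, 59.97, 45.1 and 56.04 in sham fibers (-2.08). The calcium channel inhibitors of the RGK family did not pass. Rrad had 299, 451, 222 and 367 in DEN fibers and 284, 354, 130.4 and 99.5 in sham fibers (0.62, adjusted p = 0.198), and it passed narrowly without sham library 2 (0.97, adjusted p = 0.0498).

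In the dystrophin complex 5 of 21 genes rose and 5 fell (12 and 2 under total-count scaling, median -0.11). Nos1, the neuronal nitric oxide synthase anchored to this complex, had 45.7, 58.5, 46.6 and 49.4 normalised CPM in DEN fibers and 202, 167, 153 and 184 in sham fibers (-1.82). Sntb1, a syntrophin, had 11.8, 10.9, 10.8 and 14.2 in DEN fibers and 3.13, 2.72, 3.05 and 2.27 in sham fibers (2.09).

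Several pairs of paralogs shifted away from the form of adult muscle or, for Actn2 and Actn3, from the form of fast fibers. Rpl3 had 161, 136, 158 and 138 normalised CPM in DEN fibers and 40.7, 43.2, 52.9 and 42 in sham fibers (1.73). Rpl3l, its muscle paralog in the ribosome, had 182, 218, 154 and 218 in DEN fibers and 554, 525, 584 and 681 in sham fibers (-1.602). Rpl3 was thereby 31.4, 24.4, 34.7 and 24.7% of the pair's RPKM in DEN fibers and 3.67, 4.08, 4.48 and 3.09% in sham fibers. For the elongation factor 1 alpha genes the order of the pair turned round. Eef1a1, the general form, was 63.6, 56.2, 64.4 and 58.96% of Eef1a1 plus Eef1a2 in DEN fibers and 12.7, 14.1, 17.4 and 10.8% in sham fibers, with the caveat that Eef1a1 has many processed copies that can share reads. Actn2 was 18.7% ± 1.2 of Actn2 plus Actn3 in DEN fibers and 6.898% ± 1.32 in sham fibers. Brain creatine kinase Ckb was 0.197% ± 0.06 of Ckb plus Ckm in DEN fibers and 0.0509% ± 0.0133 in sham fibers (SD, n = 4 each). The groups were separate for all 4 shares.

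**Figure D3:**
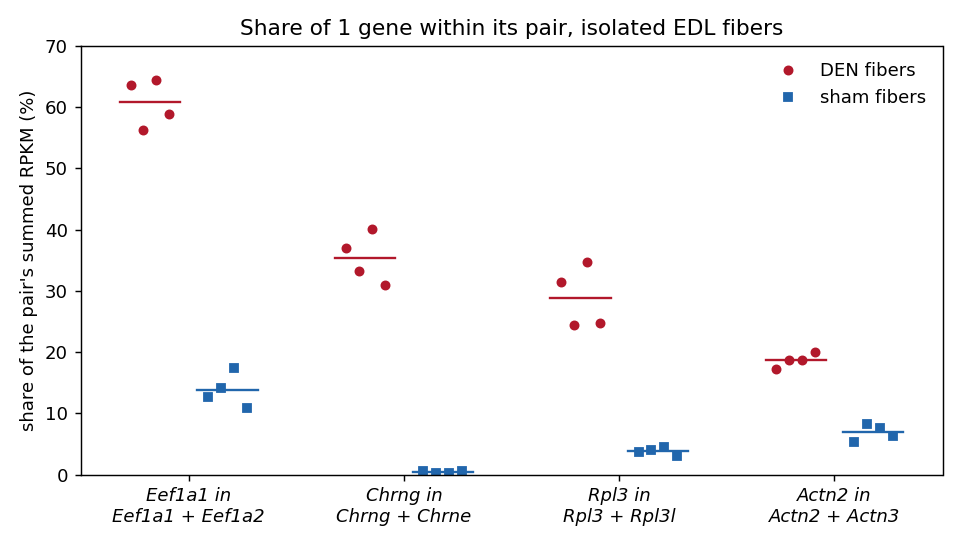
Share (percent of summed RPKM) of 1 gene within its pair in each isolated fiber library, DEN fibers as circles on the left and sham fibers as squares on the right, with bars at the means of 4 libraries. Eef1a1 is the member shown whose DEN libraries (56.2% to 64.4%) are all above 50%.

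Of 47 translation factors 18 rose and 13 fell (33 and 6 under total-count scaling, median 0.071). Eef1a1 had 1993, 1754, 1928 and 1977 normalised CPM in DEN fibers and 292, 305, 419.7 and 279 in sham fibers (2.56). The inhibitors Eif4ebp2, which blocks initiation, and Eef2k, which blocks elongation, had 75.1, 80.2, 70.6 and 82.7 and 35.3, 42.3, 35.2 and 43.5 in DEN fibers, against 189, 171, 153 and 173 and 85.2, 88.98, 76.4 and 85.7 in sham fibers (-1.15 and -1.105). Cytosolic aminoacyl-tRNA synthetases rose in 7 of 20 cases, led by Dars (0.89), and fell in 5 (17 and 0 under total-count scaling, median 0.063). The count of falls was 3 without DEN library 1, 2 or 3 or sham library 1, 2 or 4.

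Enzymes of adenine nucleotide and creatine metabolism fell in 10 of 18 cases and rose in 4 (median -0.52), against 7 and 8 under total-count scaling. Ampd1, the muscle AMP deaminase, had 295, 332, 227 and 273 normalised CPM in DEN fibers and 1541, 1325, 1193 and 1466 in sham fibers (-2.29). Ampd3, the isoform of red cells and other tissues, had 134, 144, 157 and 129 in DEN fibers and 23.5, 21.04, 14.6 and 13.1 in sham fibers (2.97). The groups were separate for both, in opposite order, and separate groups were a condition for naming Ampd1. Adssl1, the muscle adenylosuccinate synthase, fell by 1.64, and muscle creatine kinase (Ckm) had 7602, 8307, 6649.5 and 8729 in DEN fibers and 24116, 18828, 21761 and 26169 in sham fibers (-1.54).

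All 13 mitochondrially encoded mRNAs fell, under both scalings, with a median of -1. The falls were unequal. The complex I genes mt-Nd2 and mt-Nd1 fell by 1.88 and 1.59, whereas mt-Co1 and mt-Cytb fell by 0.86 and 0.85. Sham library 1 was the highest for each of these 4 genes, at 17873, 12380, 11777 and 9867 normalised CPM in the sham libraries for mt-Nd2, against 3495, 3724, 3278 and 3629 in DEN fibers. These genes share reads with near-identical nuclear copies, 5 of which stood among the 20 genes of highest RPKM in DEN fibers, so their levels are uncertain.

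In lipid metabolism 10 of 34 genes rose and 8 fell (17 and 3 under total-count scaling, median -0.12), against 27.1% and 27% of all genes. Scd1, the stearoyl-CoA desaturase, stood far from the rest with 319.8, 277, 367 and 388 normalised CPM in DEN fibers and 15.7, 16.4, 21.4 and 12.9 in sham fibers (4.34). Dgat2, which completes triglyceride synthesis, rose by 1.05, and the lipid droplet proteins Plin3 and Plin4 fell by 1.23 and 1.23. Summed adipocyte markers overlapped between groups, at 9.37, 0.289, 2.68 and 7.19 in DEN fibers and 1.75, 0.0461, 0.821 and 2.02 in sham fibers. Their part in the Scd1 result was not tested. Myoglobin (Mb), the oxygen store of oxidative fibers, had 5536, 5533, 5013 and 5785 in DEN fibers and 1352, 1993, 1715 and 1664 in sham fibers (1.701), and moved to rank 17 by RPKM in DEN fibers, against rank 47 in sham fibers.

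Ubiquitin ligases of muscle fell in 23 of 34 cases and rose in 4 (median -0.498), whereas under total-count scaling 11 were lower and 15 higher. The Asb family of substrate adaptors, grouped after its values were seen, fell in 10 of 11 cases (9 under total-count scaling). Asb2 had 189, 244, 177 and 193 normalised CPM in DEN fibers and 1038, 972, 1036 and 1060.2 in sham fibers (-2.35). Asb12 had 9.48, 14.4, 8.08 and 14.3 in DEN fibers and 52.9, 39.5, 40.7 and 47.7 in sham fibers (-1.97). Fbxl22, an F-box protein of the Z-disc, and Mdm2, the p53 ligase, rose by 0.98 and 0.37.

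Among calpains and caspases 7 of 18 rose and 6 fell (13 and 2 under total-count scaling, median 0.17). Capn3, the muscle calpain, had 13.4, 15.3, 12.03 and 16.3 normalised CPM in DEN fibers and 33.8, 32.6, 27.8 and 33.9 in sham fibers (-1.17). Separate groups were a condition for naming Capn3.

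Targets of p53 and growth arrest genes were divided, with 9 of 24 higher and 9 lower (15 and 6 under total-count scaling, median 0.12). Eda2r, a receptor of the TNF family, had 121, 126, 118 and 107 normalised CPM in DEN fibers and 19.4, 11.2, 15.4 and 15.1 in sham fibers (2.95). Cdkn1a, the cell cycle inhibitor p21, had 276, 219.9, 253 and 225 in DEN fibers and 78.6, 115, 93.5 and 57.5 in sham fibers (1.497). Within 1 small family the stress sensor Gadd45a rose by 2.096 and its paralog Gadd45b fell by 1.97, with 83.96, 98.7, 80.1 and 94.6 in DEN fibers and 352, 464, 261 and 320.2 in sham fibers. Btg2, an antiproliferative factor, fell by 1.49.

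The ATF4 pathway, which answers amino acid shortage and unfolded proteins, was likewise split, with 9 of 25 genes higher and 11 lower (13 and 6 under total-count scaling, median 0.029). Asns, asparagine synthetase, had 16.6, 13.8, 18.6 and 19.4 normalised CPM in DEN fibers and 2.998, 3.14, 2.39 and 2.401 in sham fibers (2.65). Trib3, a pseudokinase, had 7.55, 10.05, 15.3 and 14.2 in DEN fibers and 1.38, 1.78, 1.04 and 0.965 in sham fibers (3.19). Atf4 itself had 159, 166, 159.9 and 165 in DEN fibers and 303, 358, 299.7 and 306 in sham fibers (-0.96), and its partner Ddit3 (CHOP) fell by 1.28. Chac1, a glutathione-degrading target, fell by 1.21 although its groups overlapped, since sham library 2 was at 35.3 and the highest DEN library at 36.4. Phgdh, the entry enzyme of serine synthesis, did not pass (0.19, adjusted p = 0.613).

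Of 25 amino acid transporters 7 rose and 6 fell (15 and 3 under total-count scaling, median 0.102). Slc43a2, a transporter of large neutral amino acids, had 44.8, 44.8, 47.8 and 40.96 normalised CPM in DEN fibers and 13.8, 14.95, 12.7 and 12.1 in sham fibers (1.74). Slc38a2, the starvation-induced glutamine carrier, had 291, 318, 295 and 337 in DEN fibers and 953, 1095, 606 and 583 in sham fibers (-1.38). Slc38a1, its relative, rose by 1.92, and Slc7a2, a carrier of arginine, fell by 1.59. Endoplasmic reticulum chaperones rose in 12 of 22 cases and fell in 2 (20 and 0 under total-count scaling, median 0.29). The stress sensor Atf6 had 76.2, 80.5, 80.9 and 75.5 in DEN fibers and 45.98, 48.6, 41.95 and 48.6 in sham fibers (0.76). The chaperone partner Dnajb9 fell by 0.63 with TMM scaling and did not pass under total-count scaling (-0.14).

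Insulin, IGF and FoxO signalling genes moved both ways, with 13 of 37 higher and 12 lower (22 and 5 under total-count scaling, median -0.12). Irs1 had 29.95, 39.9, 31.9 and 29.99 normalised CPM in DEN fibers and 187, 115, 204 and 148 in sham fibers (-2.31). Irs2 had 124, 169, 116 and 159.8 in DEN fibers and 515, 745, 377 and 448 in sham fibers (-1.88). Both substrates relay signals of the insulin and IGF receptors, and separate groups were a condition for naming them. The binding protein Igfbp5 had 1469.6, 1416, 1700 and 1295 in DEN fibers and 767, 634, 672 and 629.8 in sham fibers (1.12). Another binding protein, Igfbp2, had the largest fold of the list at a low level, with 2.75, 1.66, 3.15 and 1.57 in DEN fibers and 0.133, 0.0231, 0.0587 and 0.0643 in sham fibers (5.04). The ligand Igf2 rose by 1.67 at a low level, up to 2.08 in DEN fibers.

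In myostatin, activin and BMP signalling, the ligands Gdf5 and Gdf6 rose and myostatin fell. Gdf5, a BMP ligand that opposes denervation atrophy in mice, had 13.9, 16.4, 20.4 and 10.8 normalised CPM in DEN fibers and 0.0531, 0.185, 0.352 and 0.322 in sham fibers (6, SE 0.35). Gdf6, its close relative, had 1.29, 0.806, 1.87 and 1.15 in DEN fibers and 0.159, 0.0461, 0.137 and 0.0429 in sham fibers (3.72). Mstn (chromosome 1, 53061640 to 53068079), which encodes the growth inhibitor myostatin, had 10.9, 11.2, 10.3 and 8.93 in DEN fibers and 73.6, 45.5, 56.2 and 61.1 in sham fibers (-2.51, SE 0.14). The groups were separate for all 3, which was a condition for naming Gdf5 and Gdf6. Acvr2b, the receptor of myostatin and activin, fell by 1.44. Chrd, an extracellular BMP antagonist, had 18.4, 21.6, 20.1 and 15.6 in DEN fibers and 4.51, 6.99, 7.61 and 5.08 in sham fibers (1.64). Of 36 genes 11 rose and 12 fell (18 and 4 under total-count scaling, median -0.12).

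All 5 members of a list of secreted factors rose. Tgfb1, Spp1, Ostn and Chrd were used by the study in later experiments and S100a8 was only named by it, and since they were chosen partly on these libraries the count is not independent evidence. Tgfb1 had 26.2, 26.6, 25.1 and 22.1 normalised CPM in DEN fibers and 13.5, 12.1, 11.9 and 8.83 in sham fibers (1.11). Ostn, encoding musclin, had 14.8, 10.5, 13.2 and 15.2 in DEN fibers and 5.57, 6.97, 5.3 and 8.68 in sham fibers (1.02). Spp1, encoding osteopontin, had 22.5, 29.6, 28.2 and 19.3 in DEN fibers and 1.65, 2.52, 2.13 and 0.557 in sham fibers (3.86). All DEN libraries were above all sham libraries for these genes, for Chrd and for S100a8, which had 40.6, 42.99, 46.1 and 39.2 in DEN fibers and 0.371, 0.162, 0.0196 and 0 in sham fibers (8.38, and 9.49 without sham library 1).

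Of 37 neurotrophic and guidance ligands 8 rose and 12 fell (18 and 5 under total-count scaling, median 0.16). Fgfbp1, a carrier of FGFs released by muscle fibers at the synapse, had 0.165, 0.0608, 0.0851 and 0.171 normalised CPM in DEN fibers and 5.04, 4.22, 3.21 and 3.602 in sham fibers (-5.06, SE 0.28). Sema6c, a transmembrane semaphorin, had 37.8, 61.4, 34.7 and 49.98 in DEN fibers and 190, 228, 166 and 202 in sham fibers (-2.096). Sema3e and Sema3f, secreted repellents, rose by 1.18 and 1.08. In the FGF family 5 of 16 rose and 4 fell (9 and 3 under total-count scaling, median 0.23), with Fgf6, a ligand made mainly by muscle, at 1.47, 3.97, 1.22 and 2.81 in DEN fibers and 22.98, 17.4, 11.2 and 16.4 in sham fibers (-2.84).

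Wnt signalling genes fell in 13 of 37 cases and rose in 5 (4 and 15 under total-count scaling, median -0.23). Wnt4 had 5.66, 5.34, 4.99 and 5.55 normalised CPM in DEN fibers and 21.4, 23.3, 17.2 and 21.4 in sham fibers (-1.95). Dkk3, a secreted glycoprotein of the Dickkopf family, fell by 3.76, and the receptor gene Fzd10 rose by 1.67. For the YAP, TAZ and TEAD list 3 of 22 rose and 7 fell (12 and 2 under total-count scaling, median 0.0027), and 6 rose and 7 fell without sham library 3. Amotl2, which sequesters YAP, had 32.2, 30.9, 33.4 and 29.1 in DEN fibers and 63.5, 61.3, 92.3 and 61.02 in sham fibers (-1.15), with sham library 3 the highest.

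Among metallothioneins and zinc transporters 7 of 21 rose and 6 fell (14 and 1 under total-count scaling, median -0.021). The abundant Mt1 and Mt2 overlapped between groups, with log2 fold changes of -0.52 (adjusted p = 0.0161, -0.041 under total-count scaling) and -0.19 (adjusted p = 0.428, 0.29 under total-count scaling). Mt2 passed without sham library 4 (-0.36, adjusted p = 0.0181). The zinc importer Slc39a14 had 47.5, 45.3, 56.3 and 50.4 normalised CPM in DEN fibers and 20.3, 20.2, 26.6 and 19.3 in sham fibers (1.21). Of antioxidant and Nrf2 target genes 11 of 34 rose and 10 fell (23 and 2 under total-count scaling, median -0.083). Peroxiredoxin 6 (Prdx6) rose by 0.91 and the microsomal transferase Mgst3 fell by 1.36.

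Clock genes fell in 8 of 21 cases and rose in 2 (6 and 11 under total-count scaling, median -0.091). The output factor Dbp had 84.01, 89.04, 77.4 and 86.2 normalised CPM in DEN fibers and 20.9, 36.2, 18.3 and 44.3 in sham fibers (1.49), and its opponent Nfil3 had 46.4, 47.1, 39.4 and 53.4 in DEN fibers and 169.5, 166, 149.6 and 125 in sham fibers (-1.71). The time of day of tissue collection was not given in the sources used here. Of 19 imprinted genes 6 rose and 9 fell (6 and 4 under total-count scaling, median -0.33). The noncoding RNA H19 had 3201, 2711, 2614 and 3432 in DEN fibers and 190.4, 117, 116 and 186 in sham fibers (4.296), and Dlk1 fell by 2.51.

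Microtubule genes rose in 10 of 28 cases and fell in 4 (20 and 1 under total-count scaling, median 0.14). Map1b, a microtubule-associated protein best known from growing axons, had 68.6, 61.97, 70.8 and 60.5 normalised CPM in DEN fibers and 17.1, 18.7, 28.1 and 17.8 in sham fibers (1.68). Tuba8, an alpha tubulin of muscle, had 62.8, 74.8, 55.4 and 88.6 in DEN fibers and 234, 234, 209 and 224 in sham fibers (-1.68). Annexins and membrane repair genes rose in 9 of 25 cases and fell in 2 (18 and 0 under total-count scaling, median 0.28). These counts were 14 and 3 without sham library 3, and 8 and 5 without sham library 2. Anxa4 had 40.8, 40.8, 41.7 and 38.7 in DEN fibers and 5.49, 5.31, 9.05 and 7.05 in sham fibers (2.58). In prostaglandin metabolism 3 of 17 rose and 2 fell (11 and 0 under total-count scaling, median 0.47), and 8 rose without sham library 3 and 5 without DEN library 2. Hpgd, which degrades prostaglandins, had 4.06, 3.41, 3.32 and 3.68 in DEN fibers and 0.186, 0.369, 1.17 and 0.515 in sham fibers (2.64, and 3.29 without sham library 3).

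**Figure D4:**
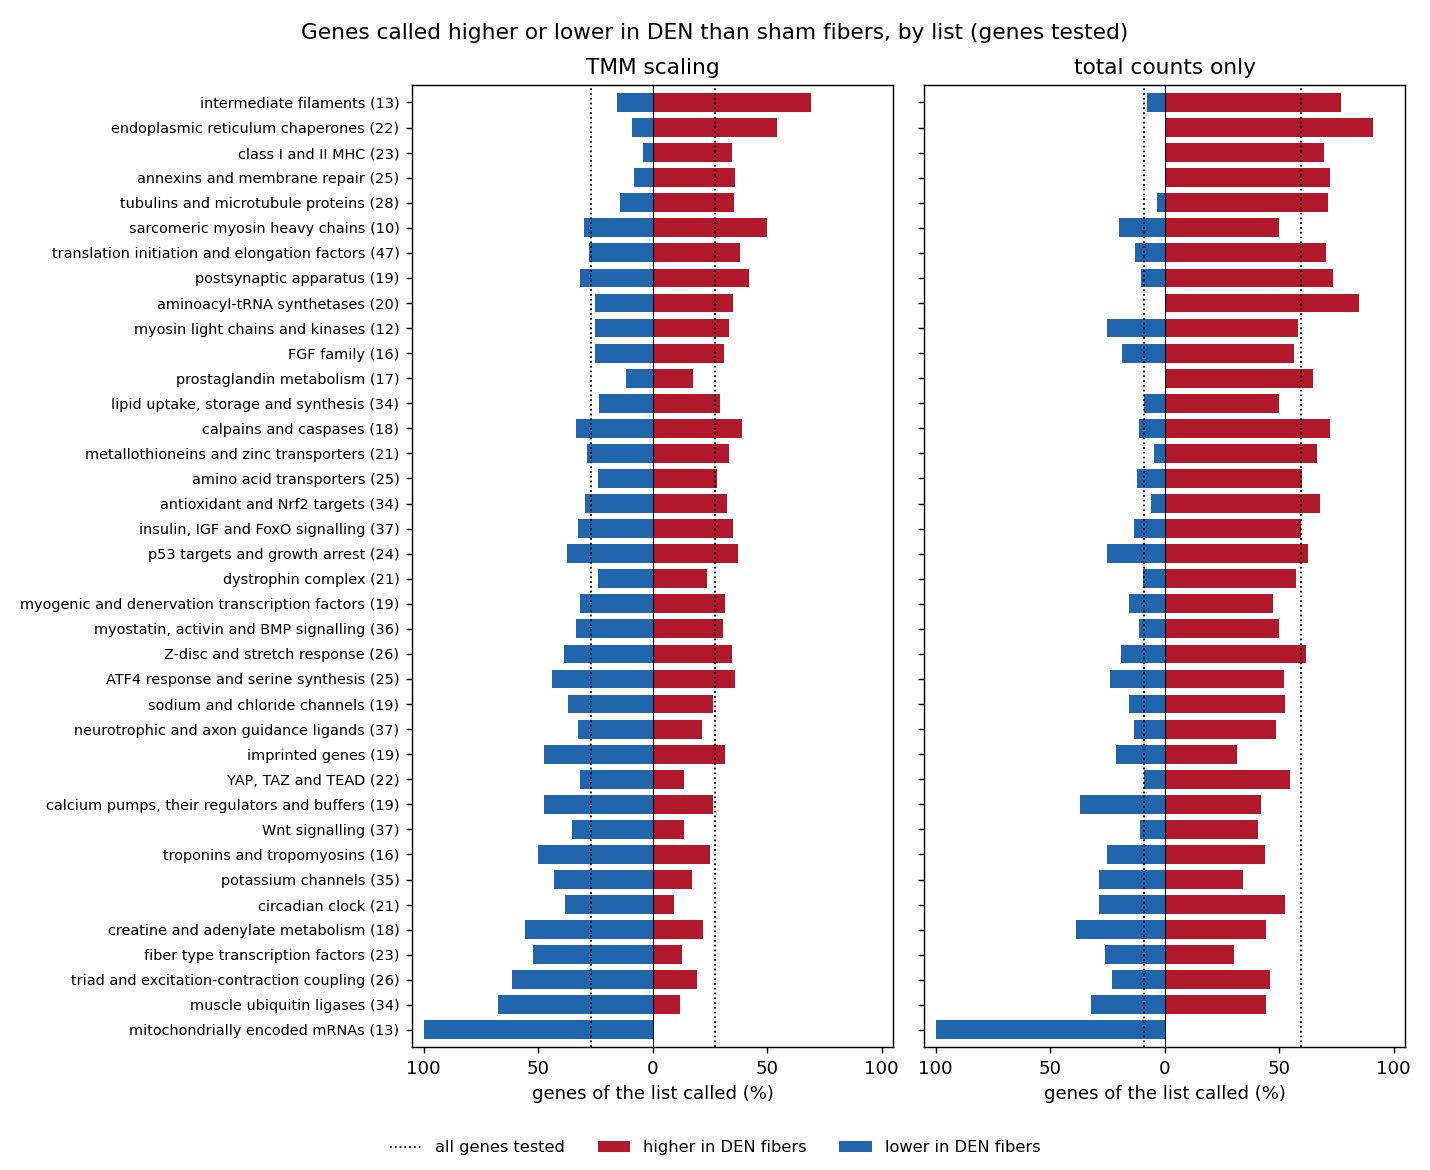
Percent of tested genes of each process list with at least 10 tested genes (number in brackets) called higher (bars to the right) or lower (bars to the left) in DEN than in sham fibers, with TMM scaling and under total-count scaling only, and dotted lines at the shares over all genes tested (27.1% and 27%, against 59.5% and 8.93%). Mitochondrially encoded mRNAs reach 13 of 13 lower in both panels, whereas most other lists lean further to the right under total-count scaling.

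RNA of cells other than fibers was present in every library, and in bulk samples fewer cells of a type cannot be told apart from less RNA per cell. All 10 macrophage markers rose, with summed levels of 103, 110, 135 and 103 normalised CPM in DEN fibers and 47.5, 34.5, 56.99 and 28.1 in sham fibers and no marker at 0 in either group. Beside them, the 7 genes of class II antigen presentation, grouped after their values were seen, all rose, as H2-Ab1 did with 25.7, 26.1, 29.5 and 38.2 in DEN fibers and 6.29, 4.25, 9.15 and 4.48 in sham fibers (2.301). Of 13 class I genes, grouped in the same way, 1 rose and 1 fell (6 and 0 under total-count scaling). In the full class I and II list, which held further genes, 8 of 23 rose and 1 fell (16 and 0 under total-count scaling, median 0.42). The part of the macrophage RNA in the rise of class II genes, Spp1 and S100a8 was not tested.

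Schwann cell markers fell in 7 of 10 cases and rose in 0 under both scalings, with summed levels of 31.9, 32.5, 58.5 and 24.6 in DEN fibers and 139, 191, 232 and 130.5 in sham fibers. The summed levels did not overlap, and DEN library 3 was the highest of the DEN libraries. Smooth muscle and pericyte markers rose in 4 of 10 cases, a count that was 2 without DEN library 1 or 4 or sham library 1, 2 or 4, 6 without DEN library 2 and 7 under total-count scaling. Their summed levels were 966, 370.1, 745 and 1423 in DEN fibers and 547, 492, 690.2 and 444 in sham fibers, with DEN library 4 the highest. Satellite cell markers were higher in 2 of 10 cases and lower in 0 (8 and 0 under total-count scaling, 5 and 0 without sham library 3).

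Tenocyte markers rose in 1 of 8 cases with all libraries and in 7 without sham library 3. Fibro-adipogenic progenitor markers rose in 3 of 10 cases, 5 without that library and 6 under total-count scaling. Endothelial markers fell in 3 of 10 cases and rose in 0, with 6 falls without sham library 2, whereas under total-count scaling 3 were higher and 0 lower. Blood markers did not pass in any of 5 cases (edgeR), although sham library 1 was high. Of 3 tested lymphocyte markers 2 fell (1 under total-count scaling), at summed levels of 0.825, 1.16, 1.42 and 0.924 in DEN fibers and 5.78, 6.18, 3.68 and 5.08 in sham fibers.

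The largest folds among genes of at least 10 normalised CPM in the higher group included several with no assigned place in the lists. Hhipl1 had 77.05, 90.8, 91.6 and 70.6 normalised CPM in DEN fibers and 0.663, 0.692, 1.17 and 0.707 in sham fibers (6.65). Igfn1, a Z-disc protein of the immunoglobulin family, had 1175, 1106, 1046 and 657 in DEN fibers and 10.2, 19.2, 21.04 and 9.99 in sham fibers (6.04). Aif1l, an actin-binding protein, and Nrcam, a neuronal adhesion molecule, rose by 5.93 and 5.23. Among the falls, Dhrs7c, a dehydrogenase of the sarcoplasmic reticulum, had 7.74, 14.5, 4.95 and 9.96 in DEN fibers and 199, 200.5, 173 and 214 in sham fibers (-4.402). Smox, spermine oxidase, had 23.6, 26.6, 20.7 and 21.6 in DEN fibers and 263, 203, 247 and 305 in sham fibers (-3.46). Amd1, which feeds the polyamine pathway, fell by 3.53, with reads that the copies Amd2 and Amd-ps3 can share. Ramp1, a subunit of the CGRP receptor, had 4.52, 6.55, 5.06 and 6.59 in DEN fibers and 68.5, 76.1, 59.4 and 68.1 in sham fibers (-3.58). Cardiac actin (Actc1) fell by 3.85 with sham libraries from 108 to 580, and was at -3.19 without sham library 4, the highest.

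The widest differences in absolute level beyond those above included carbonic anhydrase 3 and a chaperone and an enzyme gene. Car3, the carbonic anhydrase of slow muscle, had 4494, 4537, 3923 and 4196 normalised CPM in DEN fibers and 278, 157, 126 and 206 in sham fibers (4.48). Hspb7, a small heat shock protein, had 1246, 1363, 1180.1 and 1571 in DEN fibers and 235, 227, 191 and 169 in sham fibers (2.71). Aldoa, the muscle aldolase, had 9504, 9671, 8269 and 10477 in DEN fibers and 19811, 15517, 18235 and 22707 in sham fibers (-1.01). Separate groups were a condition for naming these genes.

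A switch-like pattern, with at most 3 summed counts in 1 group and at least 1 CPM in each library of the other, appeared for 4 genes on the DEN side and 0 on the sham side, of 55487. Atp13a4, a P-type ATPase (chromosome 16, 29395853 to 29544864), had 2599 summed counts after DEN and 0 after sham surgery, at least 606-fold higher with a floor of 3 counts over the group. Krt8-ps had 1318 and 0 counts, at least 309-fold higher, and may collect reads of Krt8. Atp6v0d2, a subunit of the proton pump, had 606 and 2 counts, a ratio of 212 (95% exact counting interval 58.5 to 1760). Slc10a4, a transporter of synaptic vesicles in neurons, had 383 and 2 counts, a ratio of 134 (36.9 to 1110). The intervals cover counting error only.

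For 15 genes the DEN effect was compared between fibers and whole TA in 1 model of all 16 libraries, where 18.9% of genes differed at an adjusted p of 0.05. Muscle and preparation differ together in this contrast, so an effect of EDL against TA cannot be told apart from an effect of fiber isolation. Of the 15 genes 6 differed. Junb, a subunit of AP-1, had 745 ± 72.4 normalised CPM in DEN fibers and 1297 ± 177 in sham fibers, but 116 ± 24.7 in DEN whole muscle and 10.2 ± 2.76 in sham whole muscle (SD, n = 4 each). Its log2 fold change was -0.801 in fibers and 3.51 in whole muscle, a difference of -4.31 (SE 0.25, edgeR adjusted p = 5.21e-08). Both fiber groups were thus above both whole muscle groups, and the directions were opposite. Gadd45a rose in both preparations but by less in fibers (2.09 against 5.47, difference -3.38, SE 0.28, edgeR adjusted p = 1.28e-06), and sham fibers held 117 ± 44.5, against 20 ± 2.63 in sham whole muscle.

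Sln and Tgfb1 likewise rose by less in fibers, with differences of -2.15 (SE 0.31, edgeR adjusted p = 2.00e-04) and -1.14 (SE 0.17, edgeR adjusted p = 3.14e-04). Smooth muscle Myh11 was at 1.58 in fibers and -0.93 in whole muscle (difference 2.51, SE 0.67, edgeR adjusted p = 0.0159), or 1.82 without DEN fiber library 4 (adjusted p = 0.0291), and its fiber level was uneven, at 211, 30.5, 124 and 442 in DEN fibers and 77.7, 53.9, 74.9 and 62.4 in sham fibers. The Myh11 change in whole muscle did not pass in this fit of all 16 libraries (edgeR adjusted p = 0.103). Its whole muscle level was 17.6 ± 1.02 normalised CPM after DEN and 33.4 ± 1.43 after sham surgery (SD, n = 4 each). Whole muscle was not fitted alone. Myh4 fell by more in fibers (difference -0.67, SE 0.197, edgeR adjusted p = 0.0269), a call lost without DEN fiber library 2 or sham fiber library 1 or 4 (adjusted p = 0.0523 to 0.0657). For Chrng the difference was -1.84 (SE 0.79, adjusted p = 0.115), for Krt8 -1.85 (SE 0.95), for Myh2 1.23 (SE 0.43, adjusted p = 0.0567) and for Cd68 0.12 (SE 0.39), and none of these passed. Myh2 passed without sham fiber library 1 (1.02) or 2 (1.73), Pdgfra without sham fiber library 3 (1.06), Hpgd and S100a8 without sham fiber library 1 (-1.63 and 2.90) and Spp1 without sham fiber library 4 (-1.87).

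**Figure D5:**
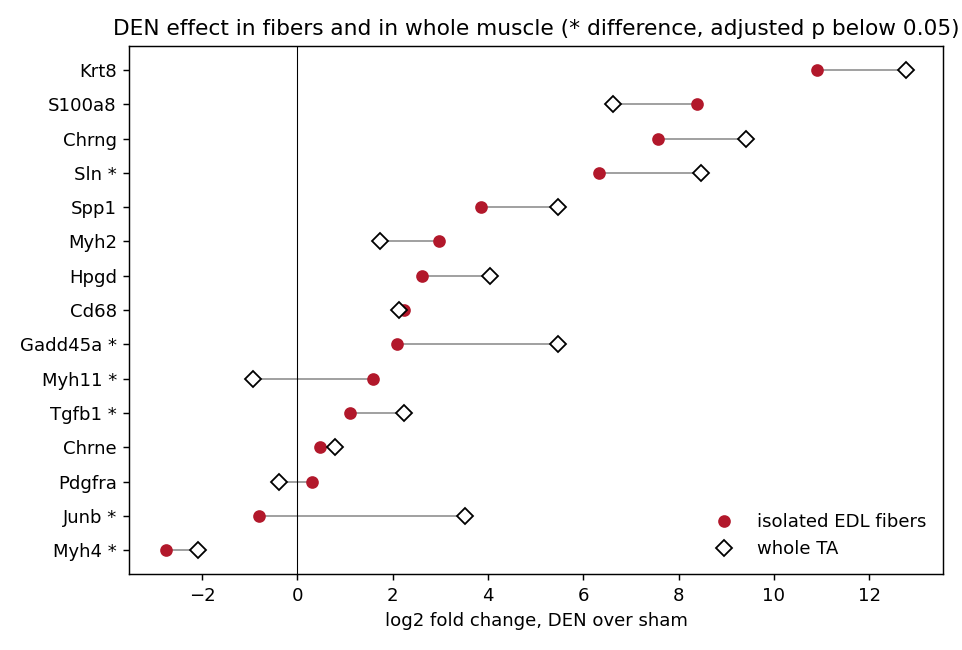
Log2 fold change of DEN over sham for 15 genes in isolated EDL fibers (filled circles) and whole TA (open diamonds), with an asterisk where the difference passed at an adjusted p of 0.05. Junb and Myh11 lie on opposite sides of 0 in the 2 preparations among the 6 genes marked. The Myh11 change in whole muscle did not pass by itself (edgeR adjusted p = 0.103).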

How the data were processed

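RNA was measured in 8 isolated EDL fiber libraries and 8 whole TA libraries, and results of the second set are given for 15 genes. Per the labels and the study's methods, the authors used bcl2fastq 2.20.0.422, cutadapt 2.1, TopHat2 2.1.0 and featureCounts 1.6.5 on GRCm38, with poly(A)-selected, strand-specific, single-end reads. The deposited tables hold raw counts per gene, and RPM and RPKM values that the authors derived from those counts. The counts were tested with the quasi-likelihood F-test of edgeR 4.0.16 in R 4.3.3 after filterByExpr (minimum count 10) and TMM scaling, with Benjamini-Hochberg adjustment. The study itself used DESeq2, which was run here as an alternative (1.42.0). A standard error is the absolute log2 fold change divided by the square root of F. RPKM was used only for levels between genes and for shares, and RPM for an alternative of the shares. Depth and count intervals cover counting error only. Named genes were fixed by function or, among genes that passed without overlap of the groups, had the largest folds of a list, the largest folds at 10 normalised CPM or more, or the widest absolute differences. Genes of the comparison between preparations were also fixed by name. Results of some genes are not reported here. The members and lists were chosen with earlier results of these data known. The statistics were tested on simulated data.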

Additional observations from a re-analysis of the deposited data

Results flagged for a closer look

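Of 386 groups of 4 values checked, 18 held a library far from the other 3, and chance flags about 1 in 20 groups. Sham fiber library 3 was high for Hhipl1 (1.17), Slc39a14 (26.6), Slc38a1 (2.17), Amotl2 (92.3) and Map1b (28.1 normalised CPM), and for summed fibro-adipogenic progenitor markers (3060) and for genes with a count (23206). Sham library 2 was low for Myog (3.69) and high for Atf4 (358), and sham library 1 was high for summed blood markers (1504).

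DEN fiber library 3 was high for Nrcam (37.6) and the Atp2a2 share (0.838%), and low for Mybpc2 (215) and Myh13 (25.4). DEN library 2 was high for Chrnb1 (128) and Kcng4 (10.03), DEN library 1 for the Myh4 share (40.7%), and DEN library 4 held the single Strit1 count (0.0171 normalised CPM).

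The DEN effect in fibers minus that in whole muscle passed the edgeR interaction test for 6 genes, at -4.31 for Junb, -3.38 for Gadd45a, -2.15 for Sln, -1.14 for Tgfb1, -0.67 for Myh4 and 2.51 for Myh11 on the log2 scale.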

How the results depend on the processing

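With total counts only, 9949 genes were higher and 1494 lower in DEN fibers, and with a log2 change of 0.58 or more also required it gave 7776 genes, 6838 higher and 938 lower. It turned the sign of Actn3 (0.30), Lmnb1 (0.0255), Gem (0.25), Mt2 (0.29), Herpud1 (0.0698), Rpl7l1 (0.23) and Ptges3 (0.12), which follows from its upward shift of all genes. Of 213 named genes, 192 kept direction and call under it, 211 with the DESeq2 Wald test, 212 with DESeq2 size factors, 213 without the low-count filter and 211 with all 16 libraries in 1 fit. Leaving out 1 fiber library gave 8242 to 9299 called genes. Myh13 lay between -0.14 and 0.34 and Gem between -0.34 and 0.0540 across these fits, and the cause was not tested.

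As shares of RPM in place of RPKM, the difference of DEN minus sham was 56.3 percentage points for Chrng, 30.4 for Myh2, 0.0880 for Myh7, 0.247 for Myh8, 1.16 for Atp2a2, 36.6 for Rpl3, 14.3 for Actn2, 0.148 for Tnnc1, 0.833 for Tnni1 and 0.756 for Tnnt1. RPM does not divide by gene length.

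Replicate numbers are shared between the groups, but same-numbered libraries correlated at 0.0869, 0.227, 0.357 and 0.0668 in their deviations, not all over 0.1, and the numbers were not taken as pairs. With the replicate block 9347 genes passed, 4692 higher and 4655 lower, and Myh13 was at -0.0372. DEN libraries 1, 2 and 3 correlated best with their own number, a hint from the data and not the design, whereas DEN library 4 correlated best with sham library 1 (0.0909). Genes under the count filter were tested only in the fit without it.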
